A study of Callithrix jacchus and Rattus norvegicus and Loxodonta africana with 31 samples.

Results

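Bile acid synthesis and uptake genes are 10 genes whose products make bile acids from cholesterol, conjugate them and move them across the membranes of liver, gut and kidney cells. They are Cyp7a1, Cyp7b1, Cyp8b1, Cyp27a1, Baat, Slc27a5, Slc10a1, Slc10a2, Slc51a and Slc51b, written in capitals from here on for all species. They were taken by gene symbol, ignoring case, from tables of the common marmoset, the rat and the tammar wallaby. Among its 20486 genes the rat file held 10 of the 10, and the wallaby file, with 13892 genes, held 7 of the 10, where CYP7A1, CYP8B1 and SLC51B were not analysed here. The symbol column of the marmoset table, with 19681 genes, gave 4 of the 10 (BAAT, SLC10A1, SLC10A2 and SLC27A5). The other 6 marmoset genes were found by their Ensembl gene ID in a name table, 5 of them under LOC numbers that match the RefSeq gene numbers of those genes, and SLC51A with no name in the file.

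Bile acids are made in hepatocytes. The classic pathway starts with the hydroxylation of cholesterol by CYP7A1, and the alternative pathway with the oxidation of the cholesterol side chain by CYP27A1, followed by CYP7B1. CYP8B1 directs the product to cholic acid, SLC27A5 and BAAT conjugate it with an amino acid, and the conjugates are secreted into bile and recovered from gut and blood by SLC10A2, the SLC51A-SLC51B exporter and SLC10A1.

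The study measured RNA across tissues to follow Y-linked genes of mammals, and the labels give no treatment, strain or age. Its 31 samples include 14 of the marmoset (Callithrix jacchus), 12 of the rat (Rattus norvegicus) and 2 of the wallaby (Notamacropus eugenii). Marmoset and rat each had liver, kidney and heart of 1 male and 1 female animal, brain columns of both sexes, 1 ovary and testis, and the wallaby had liver and testis of 1 male. Levels are FPKM, fragments scaled to transcript length and to library size, so that levels of different genes can be set side by side within a library. Each brain column fits both the frontal cortex and the cerebellum sample of its sex, and could hold either or both. The marmoset testis column fits 3 samples, so these columns are given as the authors' values with no error.

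Hepatocyte markers (7 of 8 measured in the marmoset, 8 of 8 in the rat) summed to 31413 to 45068 FPKM in marmoset livers, against 23.1 to 595 FPKM in its other columns. In rat livers they summed to 54513 to 79748 FPKM, against 16.4 to 619.8 FPKM elsewhere. ALB, the albumin gene, was nevertheless listed at 0 in the livers of both species, as were FGB and SERPINA1, a fibrinogen chain and a protease inhibitor of plasma, in the male marmoset liver, so a 0 may stand for a level that was not estimated, and such a gene is called listed at 0. Proximal tubule markers summed to 1548 to 3462 FPKM in marmoset kidneys and 1371 to 5850 FPKM in rat kidneys, and to at most 8.69 and 10.7 FPKM in the other columns of these species. The sequencing depth is unknown.

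Liver, kidney and heart of each species were compared in 1 limma fit over 6 libraries, on log2(FPKM + 1), with the animal as a block. A gene was called at a Benjamini-Hochberg adjusted p under 0.05 over all genes tested and a difference of at least 1 on the log2 scale. With 2 libraries per tissue and this block, these p-values rest on how far tissue differences disagreed between 1 male and 1 female animal. The limma fit also draws on the spread of the other genes. Sex and identity of these animals cannot be told apart. In whole tissue, fewer cells of a type and less RNA per cell cannot be told apart either.

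Most of the bile acid genes were liver genes in both species, and the exceptions lay among SLC10A2, the uptake transporter of the ileum, and the 2 exporter subunits. In marmoset liver against the mean of heart and kidney, 10 of 10 genes were tested, 8 were called higher and 2 lower (SLC10A2 and SLC51B). Over all 13967 genes tested there, 17.9% were called higher and 14.3% lower. In the rat 9 genes were tested, 7 were called higher and 1 lower (SLC51A), where 17.8% of all 13128 genes were called higher and 17.9% lower. SLC51B was left out of the rat fit by the filter on low values, since only 1 library reached 1 FPKM. That filter kept CYP7A1, CYP8B1 and SLC10A1 in the marmoset only through the livers. In the rat it kept CYP7A1, CYP8B1, BAAT and SLC27A5 only through the livers. SLC10A2 and SLC51B in the marmoset and SLC51A in the rat were kept only through the kidneys. The direction of their differences was largely set by the filter, so these counts are a description. The same holds for the sizes and p-values given below for these genes. The median difference of the genes tested was 5.09 on the log2 scale in the marmoset and 6.28 in the rat, beside 0.07 and -0.01 over all genes tested.

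**Figure D1:**
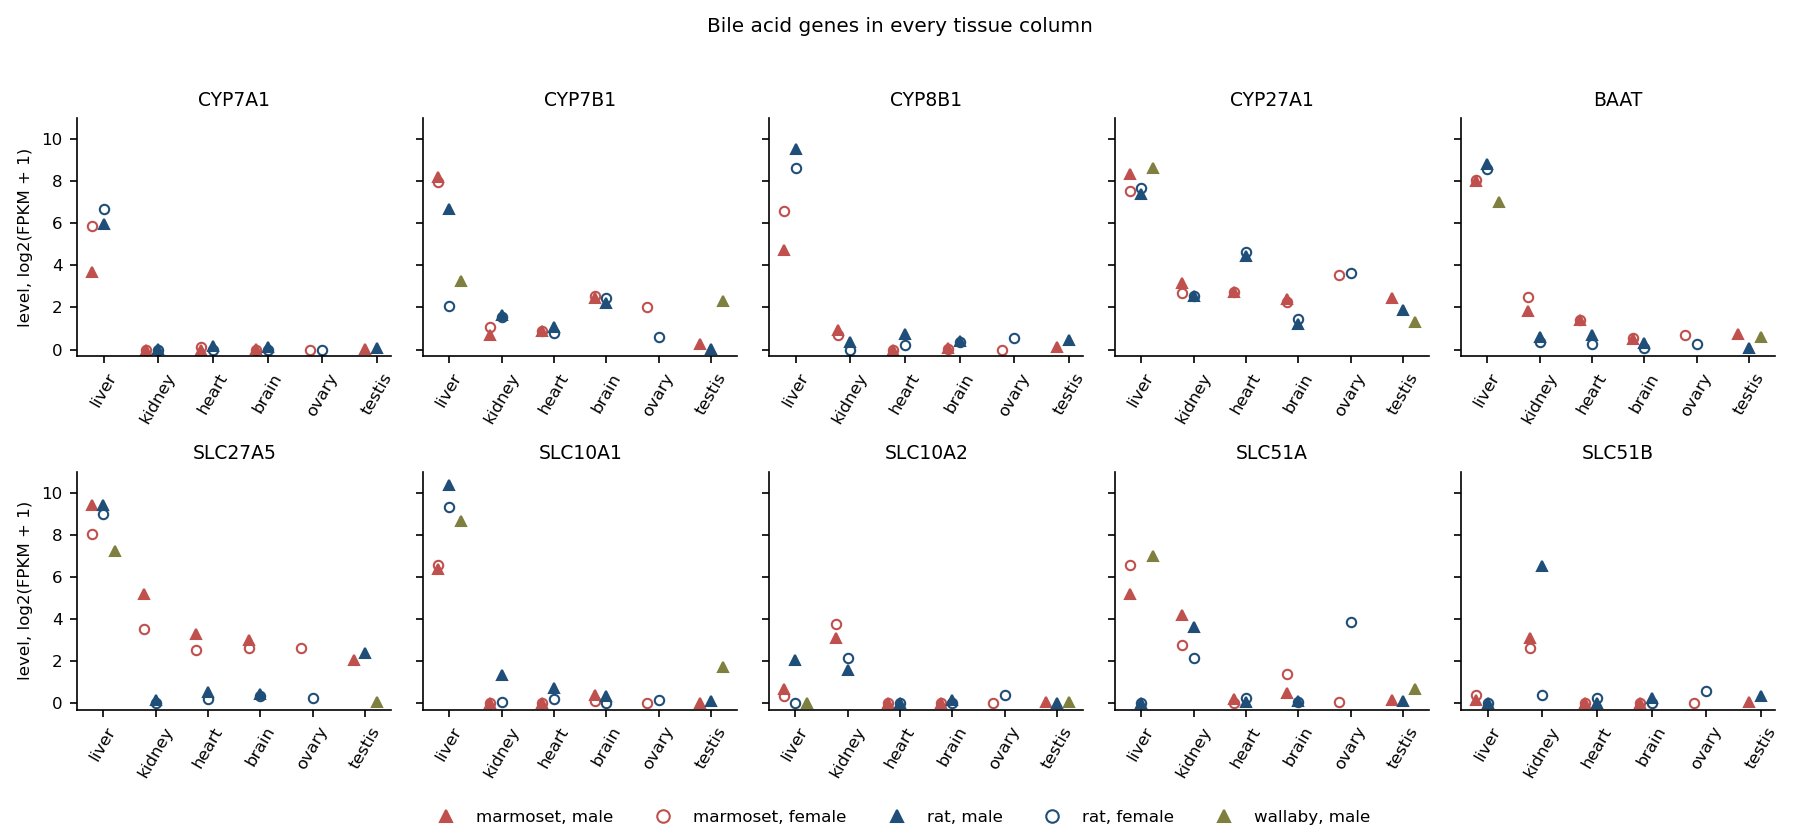
Level of each bile acid gene, as log2(FPKM + 1), in every tissue column of marmoset (red), rat (blue) and wallaby (olive). Triangles are males and open circles females, 1 column each, and the brain and marmoset testis columns are the authors' values. CYP7A1, CYP8B1, BAAT and SLC10A1 stand high in liver, while SLC10A2 and SLC51B stand highest in kidney in the marmoset. In the rat, SLC10A2 overlaps between kidney and liver, and SLC51B is high only in the male kidney.

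CYP7A1, the rate-limiting enzyme of the classic pathway, was at 11.8 and 58.3 FPKM in the male and female marmoset livers, listed at 0 in both kidneys, and at 0 and 0.0954 FPKM in the male and female hearts. Rat livers held 61.1 and 102 FPKM in male and female, rat kidneys 0.0154 and 0 FPKM, and rat hearts 0.105 and 0 FPKM. Every liver library was above every kidney and heart library of its species, and in both species the female liver was the higher. The liver mean was 35.1 ± 32.9 FPKM in the marmoset and 81.6 ± 29.0 FPKM in the rat (SD, n = 2 each). Liver exceeded the mean of heart and kidney by 4.75 ± 0.50 on the log2 scale in the marmoset (SE, limma adjusted p = 0.00150) and by 6.28 ± 0.24 in the rat (limma adjusted p = 1.88e-05). The filter on low values kept CYP7A1 only through the livers in both species, so this direction was largely set by it. With nearly all heart and kidney libraries at or close to 0, both sizes depend on the pseudocount. The marmoset size was 7.80 with 0.1 and 2.70 with 5, and the rat size ranged from 4.06 to 9.32 over the alternative fits. Brain, ovary and testis columns held at most 0.0290 FPKM in the marmoset and 0.0938 FPKM in the rat. Liver held 99.7% of the summed tissue means of CYP7A1 in the marmoset and 99.8% in the rat, and the order of the other tissues lies within the spread of their libraries.

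CYP8B1, the sterol hydroxylase needed for cholic acid, followed with 25.2 and 95.9 FPKM in the male and female marmoset livers, 0.876 and 0.591 FPKM in the kidneys, and 0 in both hearts. Rat livers held 750.5 and 389 FPKM in male and female, rat kidneys 0.278 and 0 FPKM, and rat hearts 0.684 and 0.158 FPKM. No kidney or heart library of either species overlapped with liver, and the female was the higher in the marmoset and the male in the rat. The limma difference of liver from the mean of heart and kidney was 5.26 ± 0.47 in the marmoset (adjusted p = 8.96e-04) and 8.75 ± 0.20 in the rat (adjusted p = 5.26e-06), on the log2 scale with SE. Over the alternative fits it ranged from 3.37 to 7.43 in the marmoset and from 6.69 to 10.8 in the rat. As for CYP7A1, the filter kept CYP8B1 only through the livers in both species, which largely set the direction. Outside the 3 tissues fitted, CYP8B1 reached 0.0831 FPKM in the marmoset (testis) and 0.484 FPKM in the rat (ovary).

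CYP27A1, which oxidizes the cholesterol side chain in mitochondria, was also highest in liver but was present in every tissue. It stood at 325 and 182 FPKM in the male and female marmoset livers, against 7.84 and 5.47 FPKM in the kidneys and 5.58 and 5.73 FPKM in the hearts. In the rat it stood at 169 and 205 FPKM in the male and female livers, 4.80 and 4.89 FPKM in the kidneys, and 20.7 and 24.0 FPKM in the hearts. Rat heart lay above rat kidney in both animals, while marmoset kidney and heart overlapped. Liver exceeded the mean of heart and kidney by 5.11 ± 0.24 on the log2 scale in the marmoset (SE, limma adjusted p = 1.31e-04) and by 4.00 ± 0.20 in the rat (limma adjusted p = 5.02e-05). Rat kidney fell 1.99 ± 0.23 below rat heart on that scale (SE, limma adjusted p = 0.00126), whereas the marmoset difference of 0.18 ± 0.27 was not called (limma adjusted p = 0.625). Whether the species differ here was not tested, because their tables were normalized separately. In the order of levels, marmoset liver was followed by ovary at 10.5 FPKM, kidney, heart, testis at 4.55 FPKM and the brain columns at 4.33 and 3.85 FPKM (male, female), and the values of kidney, heart, testis and brain lay between 3.85 and 7.84 FPKM. In the rat, liver was followed by heart, ovary at 11.4 FPKM, kidney, testis at 2.71 FPKM and the brain columns at 1.30 and 1.76 FPKM.

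CYP7B1, the oxysterol hydroxylase of the alternative pathway, was the gene in which the rat animals differed most in liver. Marmoset livers held 295 and 246 FPKM in male and female, marmoset kidneys 0.624 and 1.10 FPKM, and marmoset hearts 0.832 and 0.871 FPKM. In rat livers the level was 102 FPKM in the male and 3.17 FPKM in the female, against 2.15 and 1.92 FPKM in the kidneys and 1.10 and 0.733 FPKM in the hearts. The female rat liver lay just above the kidney libraries, while the male rat liver lay far above every other rat library. Liver exceeded the mean of heart and kidney by 7.19 ± 0.21 on the log2 scale in the marmoset (SE, limma adjusted p = 4.82e-05) and by 3.10 ± 0.93 in the rat (limma adjusted p = 0.0336). Without the male liver the rat difference was 0.89 (limma adjusted p = 0.0410, under the size needed for a call), and without the female liver it was 5.32 (adjusted p = 2.84e-05). It was also lost without the animal block (limma adjusted p = 0.0800), and without the female heart (0.0509), the male heart (0.115) or the male kidney (0.0569), all limma adjusted p-values. Rat liver against kidney gave 2.77 ± 1.08 on the log2 scale and was not called (limma adjusted p = 0.0921), but was called without the female liver at 4.98 (adjusted p = 4.91e-05). Next in order after liver came the brain columns, at 4.53 and 4.80 FPKM in the male and female marmoset and 3.57 and 4.52 FPKM in the male and female rat. In the female rat the brain value was above the liver value. Ovary stood at 3.12 FPKM in the marmoset and 0.513 FPKM in the rat, and testis at 0.193 and 0.0217 FPKM.

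SLC27A5, the bile acyl-CoA synthetase that activates bile acids for conjugation, was at 678 and 264 FPKM in the male and female marmoset livers, 35.8 and 10.7 FPKM in the kidneys, and 8.83 and 4.82 FPKM in the hearts. Rat livers held 680.2 and 515 FPKM in male and female, rat kidneys 0.0948 and 0 FPKM, and rat hearts 0.432 and 0.134 FPKM. Liver stood above every other library in both species, and the male was the higher in all 3 tissues of both. The limma difference of liver from the mean of heart and kidney was 5.08 ± 0.24 in the marmoset (adjusted p = 1.40e-04) and 9.00 ± 0.18 in the rat (adjusted p = 5.26e-06), on the log2 scale with SE. The alternative fits gave 4.34 to 5.27 in the marmoset and 6.85 to 11.4 in the rat. In the rat the filter kept SLC27A5 only through the livers, which largely set the direction. Marmoset kidney exceeded marmoset heart by 1.45 ± 0.28 on that scale (SE, limma adjusted p = 0.0122). That call was lost without the animal block (limma adjusted p = 0.291), without the male heart (0.0643) and without the male kidney (0.0835), again as limma adjusted p-values. The marmoset brain columns were at 7.14 and 5.24 FPKM in male and female, its ovary at 5.19 FPKM and its testis at 3.18 FPKM. In the rat, testis at 4.18 FPKM came next after liver, and the brain and ovary columns held at most 0.358 FPKM.

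BAAT, which joins the activated bile acid to an amino acid, was at 259 and 267 FPKM in the male and female marmoset livers, 2.60 and 4.66 FPKM in the kidneys, and 1.68 FPKM in each heart. In the rat it was at 452 and 379.8 FPKM in the male and female livers, 0.509 and 0.265 FPKM in the kidneys, and 0.588 and 0.212 FPKM in the hearts. The groups did not overlap between liver and the other tissues, and the 2 liver values of each species lay close together. Liver exceeded the mean of heart and kidney by 6.25 ± 0.22 on the log2 scale in the marmoset (SE, limma adjusted p = 6.33e-05) and by 8.23 ± 0.18 in the rat (limma adjusted p = 5.26e-06). These sizes ranged from 5.15 to 6.70 and from 6.28 to 9.79 over the alternative fits. The rat direction was largely set by the filter, which kept BAAT there only through the livers. The gonad and brain columns held at most 0.663 FPKM in the marmoset and 0.249 FPKM in the rat.

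SLC10A1, the sodium-dependent carrier that takes conjugated bile acids from blood into hepatocytes, was at 82.6 and 94.9 FPKM in the male and female marmoset livers and was listed at 0 in both kidneys, both hearts, the ovary and the testis. Rat livers held 1313 and 649 FPKM in male and female, the highest level among the 10 genes in each animal. Rat kidneys held 1.54 and 0.0325 FPKM in male and female, and rat hearts 0.667 and 0.162 FPKM. Liver was called higher than the mean of heart and kidney in the marmoset (limma adjusted p = 4.82e-05), where no size is given because those tissues were listed at 0. The filter kept marmoset SLC10A1 only through the livers, so this direction was largely set by it. In the rat the difference was 9.27 ± 0.23 on the log2 scale (SE, limma adjusted p = 5.26e-06), and 7.38 to 11.0 over the alternative fits. The brain columns were at 0.290 and 0.0643 FPKM in the male and female marmoset and at 0.284 and 0 FPKM in the male and female rat.

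**Figure D2:**
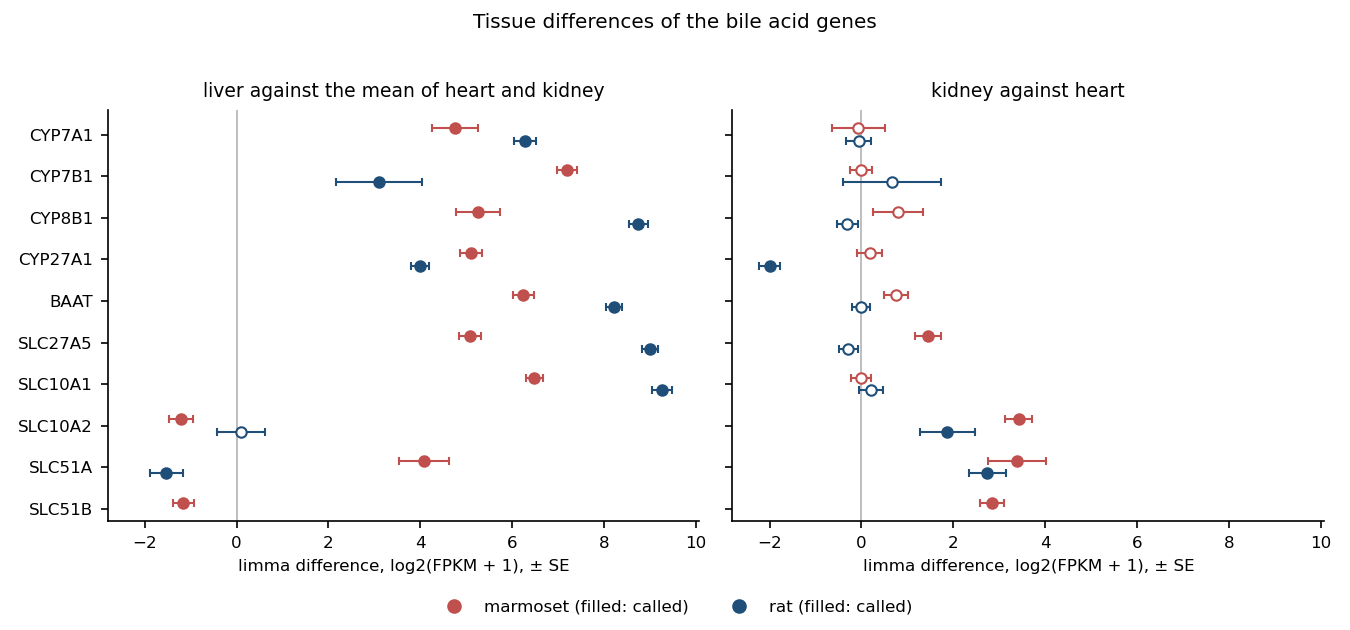
Difference between tissues for each bile acid gene from the limma fits, as log2(FPKM + 1) with SE, for liver against the mean of heart and kidney (left) and kidney against heart (right), in marmoset (red) and rat (blue). Filled points were called and open points were not. Differences against a tissue listed at 0 depend on the pseudocount, and SLC51B was not tested in the rat. SLC51A lies at 4.08 in the marmoset and -1.53 in the rat on the left.

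SLC10A2, the apical sodium-dependent carrier known from ileum, kidney tubule and bile ducts, was a kidney gene in the marmoset. It stood at 7.56 and 12.5 FPKM in the male and female marmoset kidneys, against 0.578 and 0.264 FPKM in the livers, and was listed at 0 in both hearts. Both kidneys lay above both livers. Marmoset liver fell 2.93 ± 0.30 below kidney on the log2 scale (SE, limma adjusted p = 0.00194). The filter kept marmoset SLC10A2 only through the kidneys, so the direction of its differences from kidney was largely set by it. Over all marmoset genes 14% were called higher in liver than in kidney and 13.3% lower, and of the 10 genes 8 were called higher and 2 lower. Against the mean of heart and kidney the difference was -1.21 ± 0.26 (SE, limma adjusted p = 0.0149), and this call was lost without the female liver (-0.89, adjusted p = 0.109) and without the male heart (adjusted p = 0.0513). In the rat the kidneys were at 2.00 and 3.47 FPKM in male and female, the livers at 3.20 and 0 FPKM, and both hearts were listed at 0. Rat liver and kidney overlapped, and neither liver against kidney (-0.84 ± 0.60 on the log2 scale, limma adjusted p = 0.318) nor liver against the mean of heart and kidney (0.10 ± 0.52, limma adjusted p = 0.884) was called. Liver against the mean of heart and kidney turned with the library left out, since it was called lower at -1.08 without the male liver (limma adjusted p = 0.0259) and higher at 1.28 without the female liver (limma adjusted p = 0.0135). Kidney was called higher than heart in both species (limma adjusted p = 0.00102 in the marmoset and 0.0489 in the rat), with heart listed at 0. The rat call was lost without the block (0.0723), the female heart (0.134), the female kidney (0.250) or the male heart (0.272), all limma adjusted p-values. Bile duct markers, 6 of 6 measured, summed to 17.6 and 7.89 FPKM in the male and female rat livers, with 2 and 0 of the 6 listed at 0. Their sums were higher in the male and female rat kidneys (265 and 223 FPKM) and hearts (32.3 and 24.8 FPKM). The sums thus do not single out bile duct cells, and their part in the SLC10A2 values was not tested.

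The kidney against heart comparison called 4 of the 10 marmoset genes higher and none lower, namely SLC10A2, SLC51A, SLC51B and SLC27A5, and no gene was lower at an unadjusted p under 0.05 either. Over all marmoset genes 19.7% were called higher and 13.2% lower there. In the rat 2 of 9 were called higher, SLC10A2 and SLC51A, and 1 lower, CYP27A1, where 17.1% of all genes were called higher and 17.7% lower. The median difference of the genes tested was 0.77 in the marmoset and -0.01 in the rat, beside 0.10 and -0.02 over all genes tested. In rat liver against kidney 6 of 9 were called higher and 1 lower, where 15.8% of all genes were called higher and 14.4% lower. All these counts include genes that the filter kept through 1 tissue only, so they are a description.

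SLC51A, the larger subunit of the basolateral exporter of bile acids and steroids, stood in opposite order in the 2 species. It was at 35.3 and 93.6 FPKM in the male and female marmoset livers, against 17.3 and 5.85 FPKM in the kidneys and 0.147 and 0 FPKM in the hearts. In the rat it was listed at 0 in both livers, and stood at 11.4 and 3.49 FPKM in the male and female kidneys and 0.0576 and 0.173 FPKM in the hearts. Marmoset liver lay above marmoset kidney in both animals, and rat liver below rat kidney in both. Marmoset liver exceeded the mean of heart and kidney by 4.08 ± 0.55 on the log2 scale (SE, limma adjusted p = 0.00336), by 2.99 without the female liver and by 5.18 without the male liver, a call that held in every alternative tried. Rat liver was called lower than kidney (limma adjusted p = 0.00306) and lower than the mean of heart and kidney (limma adjusted p = 0.0138), with the liver listed at 0. The last of these was lost without the female heart (limma adjusted p = 0.0565) and without the male liver (adjusted p = 0.0771). The filter on low values kept rat SLC51A only through the kidneys, so the direction of both rat calls was largely set by it. A listed 0 may also stand for a level that was not estimated. The difference between the species was not tested.

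Against kidney alone the marmoset liver difference of SLC51A was 2.39 ± 0.64 on the log2 scale (SE, limma adjusted p = 0.0383). This call was lost in 9 of the 12 alternatives, among them the fit without the block (limma adjusted p = 0.0844), without the female liver (1.29, adjusted p = 0.114), without the female kidney (1.39, adjusted p = 0.167), without the female heart (adjusted p = 0.0798) and without the male heart (adjusted p = 0.0769). Without the male liver it was 3.48 and without the male kidney 3.39. Kidney exceeded heart in both species, by 3.38 ± 0.64 in the marmoset (limma adjusted p = 0.0110) and 2.74 ± 0.41 in the rat (limma adjusted p = 0.00340), on the log2 scale with SE. The rat direction was largely set by the filter, which kept the gene there only through the kidneys. The marmoset call was lost without either heart (adjusted p = 0.0891 without the female and 0.0699 without the male), where without the female kidney the difference was 4.39 and without the male kidney 2.38. The highest rat level of SLC51A was in the ovary, at 13.6 FPKM, against 0.0541 FPKM in the marmoset ovary. The male and female marmoset brain columns held 0.420 and 1.62 FPKM, and the rat brain and the testes of both species at most 0.106 FPKM.

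SLC51B, the small subunit that the exporter needs to reach the membrane, was a kidney gene in the marmoset. It was at 7.50 and 5.08 FPKM in the male and female marmoset kidneys, against 0.103 and 0.308 FPKM in the livers, and was listed at 0 in both hearts. Both marmoset kidneys lay far above both livers, and liver fell 2.58 ± 0.26 below kidney on the log2 scale (SE, limma adjusted p = 0.00188). Against the mean of heart and kidney the difference was -1.16 ± 0.23 (SE, limma adjusted p = 0.0112), a call lost without the male liver (-0.91, adjusted p = 0.0887). Kidney was called higher than heart (limma adjusted p = 0.00118). These directions were largely set by the filter, which kept marmoset SLC51B only through the kidneys. In the rat SLC51B was at 90.6 FPKM in the male kidney and 0.315 FPKM in the female kidney, listed at 0 in both livers, and at 0 and 0.176 FPKM in the male and female hearts. Only the male rat kidney stood out, so the kidney mean of 45.5 ± 63.8 FPKM (SD, n = 2) rests on 1 library. Every other column of the 2 species held at most 0.479 FPKM (rat ovary).

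The exporter works as a pair, and the levels of its subunits were far apart in most of these libraries. SLC51A exceeded SLC51B by a ratio of 342 in the male and 303.6 in the female marmoset liver, but of 2.30 and 1.15 in the male and female marmoset kidneys. In the rat kidney the ratio was 0.125 in the male and 11.1 in the female. Bile duct markers summed to 9.32 and 8.78 FPKM in the male and female marmoset livers, against 127 and 116 FPKM in the kidneys and 109 FPKM in the testis column. These sums do not single out bile duct cells, and their part in these ratios was not tested.

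**Figure D3:**
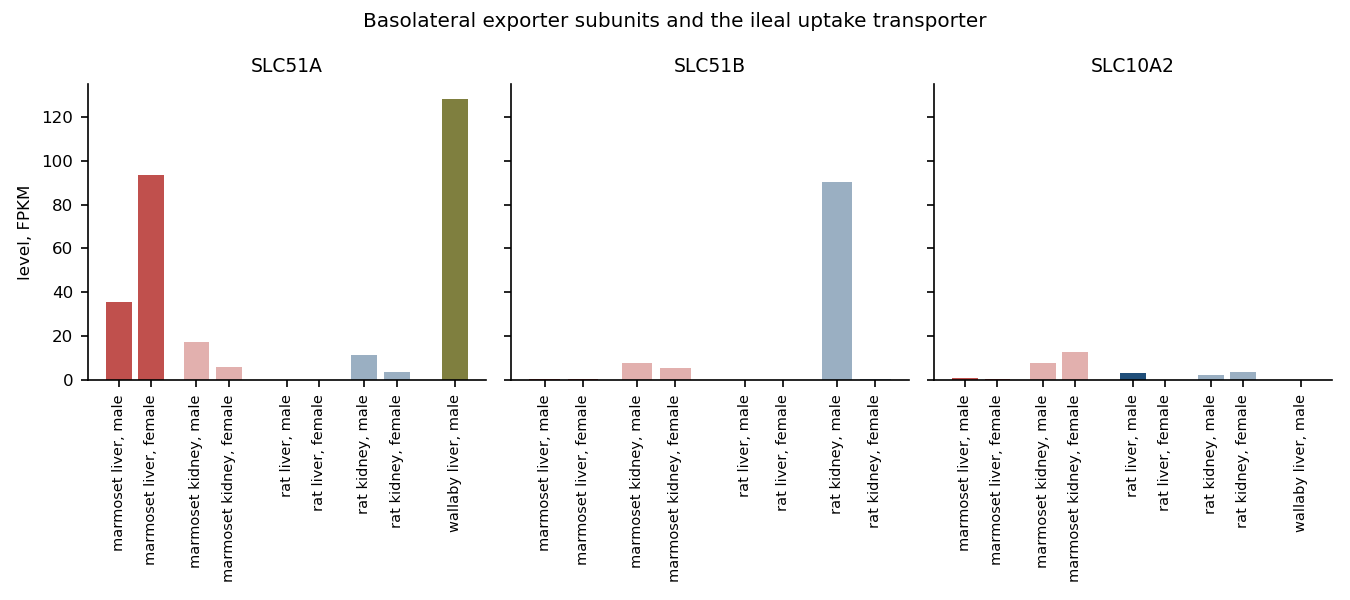
Level in FPKM of SLC51A, SLC51B and SLC10A2 in the liver (dark) and kidney (pale) libraries of marmoset (red) and rat (blue) and in the wallaby liver (olive), 1 bar per library, with no SLC51B bar for the wallaby. SLC51A is high in marmoset and wallaby liver and listed at 0 in rat liver, and SLC51B reaches 90.6 FPKM only in the male rat kidney.

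Differences between the male and the female animal were described without a test, since each sex has 1 library per tissue, and sex and animal cannot be told apart. A gene was counted at a difference of at least 1 in log2(FPKM + 1), among genes with at least 1 FPKM in either library. In rat liver 3 of 8 genes were higher in the male by that much (CYP7B1, SLC10A2 and SLC10A1) and none lower, where 11.5% of all genes were higher and 3.91% lower. CYP7B1 stood 4.62 higher in the male, and 31 of 11357 genes, itself included, lay at least as far in that direction. SLC10A2 stood 2.07 higher in the male and SLC10A1 1.02 higher, beside a median of 0.12 over all genes. CYP8B1, at 0.94, and CYP7A1, at -0.73, were short of the threshold.

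In marmoset liver 1 of 8 genes was higher in the male by at least 1 (SLC27A5) and 3 were lower (CYP7A1, CYP8B1 and SLC51A), where 23.6% of all genes were higher and 6.46% lower. CYP7A1 stood at -2.21 in the male against the female, and 69 of 12644 genes lay at least as far down. CYP8B1 followed at -1.89, with 111 genes at least as far, and SLC51A at -1.38. CYP7A1 and CYP8B1 were both lower in the male of this pair, while CYP27A1 and CYP7B1 of the alternative pathway stood at 0.83 and 0.26. SLC27A5 was higher in the male liver by 1.36, kidney by 1.65 and heart by 0.76, in a table whose genes had a median male difference of 0.25 in liver, 0.23 in kidney and 0.38 in heart. BAAT, the next enzyme after SLC27A5, differed by -0.04 in liver. Of the 7 hepatocyte markers measured, 3 were listed at 0 in the male and 1 in the female marmoset liver, with sums of 31413 and 45068 FPKM, and their part in these differences was not tested.

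**Figure D4:**
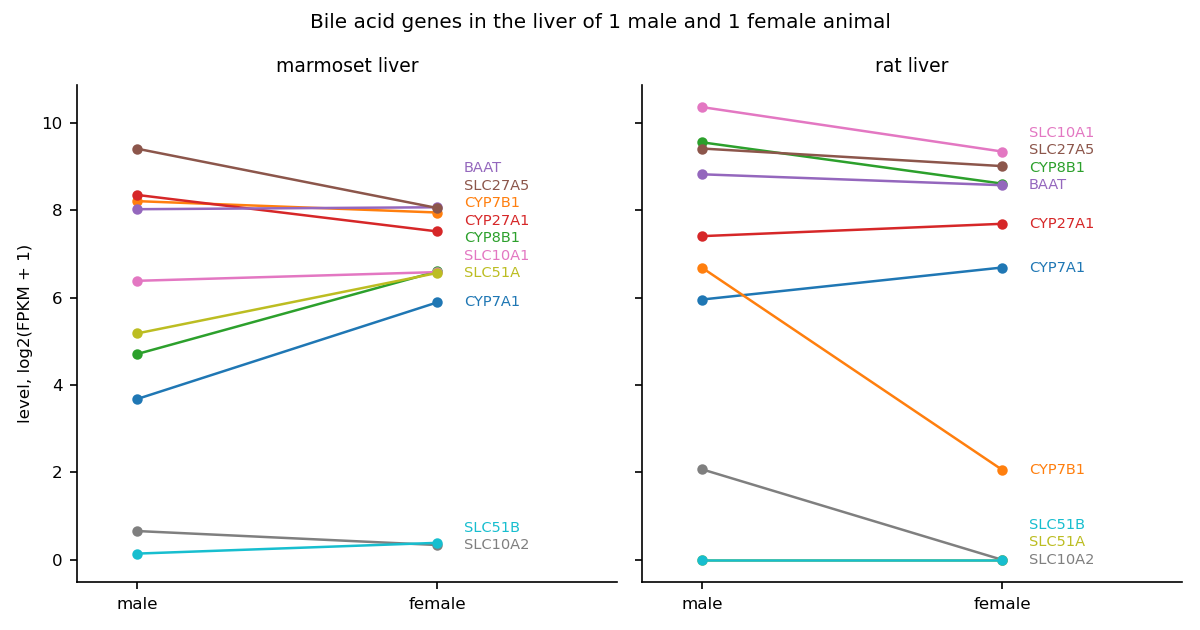
Level of each bile acid gene, as log2(FPKM + 1), in the liver of 1 male (left) and 1 female (right) animal of marmoset and rat, with 1 line per gene. CYP7B1 differs by 4.62 in the rat and by 0.26 in the marmoset, and CYP7A1 by -0.73 and -2.21, as male minus female.

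In rat kidney SLC51B stood 6.12 higher in the male on the log2 scale, and 4 of 12410 genes lay at least as far in that direction. SLC51A stood 1.46 higher in the male rat kidney and SLC10A1 1.30 higher, so that 3 of 6 genes were past the threshold, where 14.7% of all genes were higher and 4.5% lower. Proximal tubule markers (5 of 6 measured, none at 0) summed to 5850 FPKM in the male and 1371 FPKM in the female rat kidney, and their part in these differences was not tested. In marmoset kidney SLC27A5 and SLC51A, at 1.65 and 1.41, were past it among 7 genes, where 20.1% of all genes were higher and 2.26% lower, and the same markers (6 of 6 measured) summed to 3462 and 1548 FPKM in male and female. No gene was past the threshold in heart, neither among 3 genes in the marmoset, where 29.3% of all genes were higher and 8.18% lower, nor among 2 in the rat, where 5.88% were higher and 3.46% lower.

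Ratios within a liver library set enzymes of the pathways side by side. A single scaling factor per library cannot change them, but how the tables were normalized is not given. CYP7A1 stood to CYP7B1 at 0.601 in the male and 32.2 in the female rat liver, and at 0.0401 and 0.237 in the male and female marmoset livers. The only liver in which the classic enzyme exceeded CYP7B1 was that of the female rat. CYP7A1 stood to CYP27A1 at 0.362 and 0.497 in the male and female rat and at 0.0363 and 0.320 in the male and female marmoset. CYP8B1 exceeded CYP7A1 in all 4 livers, by a ratio of 12.3 and 3.81 in the male and female rat and 2.13 and 1.65 in the male and female marmoset. SLC27A5 stood to BAAT at 1.51 and 1.35 in the male and female rat, 2.62 and 0.988 in the male and female marmoset, and 1.14 in the wallaby.

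The wallaby, a marsupial, had 1 liver and 1 testis library, so its values carry no error and no test. CYP27A1 was at 391 FPKM in liver and 1.49 FPKM in testis, SLC10A1 at 405 and 2.25 FPKM, SLC27A5 at 148 and 0.0476 FPKM, BAAT at 129.7 and 0.535 FPKM, and SLC51A at 129 and 0.593 FPKM. These 5 stood 6.35 to 7.30 higher in liver on the log2(FPKM + 1) scale. CYP7B1, at 8.56 FPKM in liver and 3.96 FPKM in testis, differed by 0.95. SLC10A2 was listed at 0 in liver and stood at 0.0365 FPKM in testis. Of the 6 genes with at least 1 FPKM in either tissue, 5 were higher in liver by at least 2, where 29.2% of 11467 genes were higher by that much and 13.6% lower. The SLC51A level of wallaby liver stands beside 35.3 and 93.6 FPKM in the male and female marmoset livers and 0 in both rat livers, from separately normalized tables.

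Further genes of bile acid synthesis, transport and regulation were followed as 3 lists of 15, 16 and 15 symbols. The filter kept some list genes only through the livers, which largely set their direction, so the counts of all 3 lists are a description. Among the genes named, AKR1D1 and NR1I3 were kept so in both species. So were ABCG5, ABCG8, NR0B2 and NR1I2 in the marmoset, and HSD17B6, SLCO1B3 and ABCB11 in the rat. Of the synthesis list 11 of 13 tested were called higher and none lower in marmoset liver against the mean of heart and kidney, and 12 of 15 entries higher and 1 lower in rat liver, with medians of 2.75 and 2.69 on the log2 scale, beside 0.07 and -0.01 over all genes. Among all genes 17.9% were called higher and 14.3% lower in the marmoset, and 17.8% and 17.9% in the rat. No marmoset gene of the list was lower at an unadjusted p under 0.05 either. The marmoset count fell to 7 without the animal block. The largest called differences in the marmoset were those of AKR1D1, the steroid reductase that shapes the bile acid ring (8.01 ± 0.20), POR, the electron donor of microsomal cytochromes P450 (5.00 ± 0.17), HSD3B7, which acts after CYP7A1 (3.99 ± 0.29), and CYP39A1, another oxysterol hydroxylase (3.74 ± 0.43), all with SE. In the rat they were those of HSD17B6, a steroid dehydrogenase listed under 2 entries that may share reads (8.59 ± 0.18 and 7.64 ± 0.20), AKR1D1 (7.18 ± 0.17) and ACOX2, the peroxisomal oxidase of the bile acid side chain (6.87 ± 0.45). The rat gene called lower was CH25H, which makes an oxysterol, at -1.44 ± 0.19 (SE, limma adjusted p = 0.00159).

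Of the transport list 9 of 11 tested were called higher and 1 lower in marmoset liver, and 9 of 12 higher and 1 lower in rat liver, with medians of 3.10 and 3.78, beside 0.07 and -0.01 over all genes. The shares of all genes were 17.9% higher and 14.3% lower in the marmoset, and 17.8% and 17.9% in the rat. ABCC4, a basolateral efflux pump, was the one called lower in both, at -2.27 ± 0.22 in the marmoset and -1.92 ± 0.21 in the rat (SE, limma adjusted p = 0.00118 and 8.76e-04). The marmoset list was led by SLCO1B3, an organic anion uptake carrier (7.10 ± 0.22), ABCG5 and ABCG8, which together form the biliary sterol pump (5.81 ± 0.19 and 5.06 ± 0.23), and ABCC3, a basolateral efflux pump (5.43 ± 0.19). The rat list was led by FABP1, the liver fatty acid binding protein (11.56 ± 0.44), SLCO1B3 (8.34 ± 0.23), ABCC2, a canalicular pump (6.21 ± 0.27), and ABCB11, the bile salt export pump (6.09 ± 0.18). The rat count fell to 4 of 8 tested without the female liver and 5 of 8 without the male liver.

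Of the regulation list 12 of 14 tested were called higher in marmoset liver and none lower, and 10 of 12 higher and 1 lower in rat liver, with medians of 3.31 and 2.97, beside 0.07 and -0.01 over all genes. Called over all genes were 17.9% higher and 14.3% lower in the marmoset, and 17.8% and 17.9% in the rat. In the marmoset the largest were NR1I3 and NR1I2, nuclear receptors of xenobiotics (7.90 ± 0.32 and 6.66 ± 0.21), NR0B2, the repressor that bile acids induce (6.74 ± 0.29), and NR1H4, the bile acid receptor (4.99 ± 0.20). In the rat they were NR1I3 (4.71 ± 0.51), NR1I2 (4.30 ± 0.20), the oxysterol receptor NR1H3 (3.78 ± 0.24) and NR1H4 (3.56 ± 0.18). PPARGC1A, a coactivator of energy metabolism, was the rat gene called lower, at -2.18 ± 0.20 (SE, limma adjusted p = 4.75e-04). In the marmoset PPARGC1A alone was lower at an unadjusted p under 0.05, at -1.16 ± 0.46, and was not called (SE, limma adjusted p = 0.0919). The marmoset count fell to 7 of 9 tested without the female liver and 6 of 9 without the male liver. All named genes without a printed p had a limma adjusted p of at most 0.00210.

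**Figure D5:**
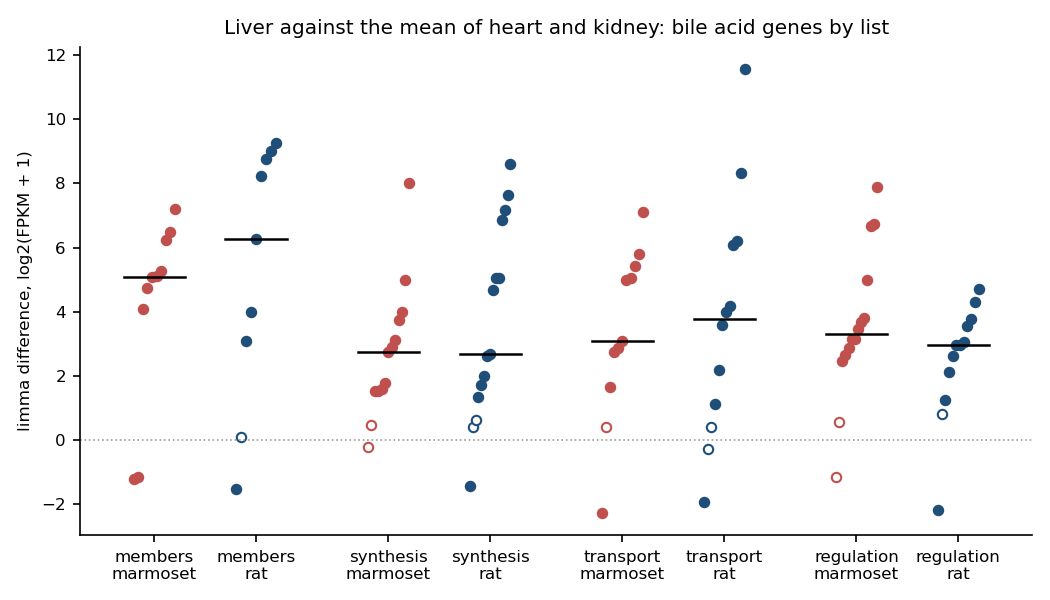
Difference of liver from the mean of heart and kidney, as log2(FPKM + 1) from the limma fits, for the bile acid genes (members) and the 3 lists in marmoset (red) and rat (blue). Each point is a gene tested, filled if called, and each bar is the median, which is 5.09 and 6.28 for the members.

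In the wallaby 12 of 12 synthesis genes with at least 1 FPKM were higher in liver than in testis by at least 2, 6 of 8 transport genes were higher and 1 lower, and 10 of 12 regulation genes were higher, where 29.2% of all genes were higher and 13.6% lower by that much. The list medians were 6.71, 3.53 and 4.79 on the log2(FPKM + 1) scale, beside 0.93 over all genes.

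Genes most like CYP7A1, CYP7B1 and SLC51A over the 10 columns of a species were named by Pearson's r of log2(FPKM + 1), as a description over columns that share tissue and animal. For CYP7A1 these were OPRPN, INHBE and CNGA1 in the marmoset (r = 1.00, 0.999 and 0.998) and VSIG4, CES1H and APOF in the rat (r = 1.00 for each). INHBE, an activin subunit gene of liver, was at 13.5 and 87.9 FPKM in the male and female marmoset livers. For CYP7B1 they were GCKR, GLS2 and DUSP10 in the marmoset (r = 0.991, 0.985 and 0.984) and KSR2, FAM117B and CAR1 in the rat (r = 0.965, 0.927 and 0.924). KSR2, a scaffold of the Ras pathway, was at 11.6 and 0.714 FPKM in the male and female rat livers. For SLC51A they were PRKAG3, BHMT and HAAO in the marmoset (r = 0.985, 0.980 and 0.978) and CNDP1, TNS4 and HPGD in the rat (r = 0.971, 0.967 and 0.961). HPGD, the prostaglandin dehydrogenase, was at 16.2 FPKM in the rat ovary and 19.3 and 8.20 FPKM in the male and female rat kidneys, the tissues in which SLC51A was highest. The like levels of INHBE, KSR2 and HPGD follow from their choice by correlation over these same columns.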

How the data were processed

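RNA-seq of marmoset, rat and wallaby tissues was read from 1 table per species. The deposited values are FPKM by the authors; TopHat 1.4.0 and Cufflinks 2.0.0 were used per the submitters' processing notes. The tables were normalized across tissues, per the deposited file names, but how, with which build and annotation, and whether with strand, is not given in the sources used here. Overlapping genes may share reads. Low values showed no steps of whole reads (at most 1.39% of low genes in the fullest bin), so depth is unknown, precision is limited by the 2 libraries per tissue, and no counting interval can be given. Columns were matched to samples by name. The 8 unused columns, all of the wallaby, held no value above 0, and the 3 elephant samples were not used. No sequence or coordinate is printed.

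Differences between tissues come from limma 3.58.1 (R 4.3.3, trend option) fitted to log2(FPKM + 1). Genes below 1 FPKM in more than 4 of the 6 libraries were left out, and p-values were adjusted by Benjamini-Hochberg over all genes tested. Genes kept through 1 tissue only, list genes among them, had their direction largely set by this filter. Differences on this scale understate the change of low genes, and sizes against a tissue near 0 depend on the pseudocount, for list genes too. The animal was a block because the labels give 1 individual per sex for these tissues. Male minus female deviations correlated between tissues at 0.617, 0.614 and 0.721 in the marmoset and 0.516, 0.443 and 0.483 in the rat (liver with kidney, liver with heart, kidney with heart). The fit was run on simulated data with the same spread for all genes and an animal effect shared by all tissues. These data differ in both, so that run cannot show how well the calls here hold. Alternatives were a pseudocount of 0.1 or 5, no filter, a filter of 5 FPKM, quantile normalization, no block, and each library left out.

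The genes named were all 10 bile acid genes and, per list and species, up to 4 with the largest called difference of liver from the mean of heart and kidney. CH25H, ABCC4 and PPARGC1A were named after their values were seen. Genes of like pattern were the 3 with the highest Pearson correlation over 10 columns, among genes with a symbol and at least 5 FPKM in a column. Genes and lists were chosen with earlier results of these data known.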

Additional observations from a re-analysis of the deposited data

Results flagged for a closer look

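SLC51A, a subunit of the basolateral bile acid exporter, was singled out because its difference of liver from kidney had opposite signs in the 2 species, in both animals of each. The marmoset difference was 2.39 on the log2(FPKM + 1) scale and the rat difference -2.90, so that they lay 5.29 apart. In the male and female marmoset it was 0.99 and 3.79, and in the male and female rat -3.63 and -2.17. The difference between the species was not tested, since the tables were normalized separately. The rat value depends on the pseudocount, because both rat livers were listed at 0. Such a 0 may stand for a level that was not estimated. The filter on low values kept rat SLC51A only through the kidneys, so the sign of the rat difference was largely set by it.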

How the results depend on the processing

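Of 42 bile acid gene results called, 34 kept their call and direction in every alternative that gave a value, 8 lost the call in some, and 7 of 15 not called gained one in some. For CYP7A1, CYP8B1 and SLC10A1 in the marmoset, the filter left no value once either liver was left out. The same held for SLC27A5, BAAT, CYP7A1 and CYP8B1 in the rat. Leaving out either kidney did so for SLC10A2 and SLC51B in the marmoset and SLC51A in the rat. Whether their calls depend on 1 such library was therefore not tested. SLC10A2 in rat liver against the mean of heart and kidney reversed without the male liver, at -1.08, and was 1.28 without the female liver. Counts of all genes called were 4507, 3815 and 4584 in marmoset liver against the mean of heart and kidney, liver against kidney and kidney against heart, and 4681, 3968 and 4571 in the rat. With a pseudocount of 5 they were 2651, 2241 and 2640 in the marmoset and 2740, 2398 and 2715 in the rat. Without the replicate block the marmoset counts were 2494, 1769 and 2183, and the rat counts were within 1.5 times. With 1 library left out, which leaves 1 residual degree of freedom and assumes that a lone library varies like the others, they ranged over 3476 to 4271, 1810 to 3821 and 2517 to 4779 in the marmoset and 3969 to 4460, 2810 to 3964 and 3348 to 4598 in the rat. The lowest marmoset counts came without the male kidney (1810; 1997 without the female) for liver against kidney and without the female kidney (2517; 2728 without the male kidney, 2760 without the female heart) for kidney against heart. The cause was not tested. Quantile normalization gave 1885 higher and 2272 lower calls for marmoset liver against the mean of heart and kidney, beside 2504 and 2003 as deposited, and 2401 and 2443 for marmoset kidney against heart, beside 2747 and 1837. It moved the median of all genes to -0.11 for marmoset liver against the mean, beside 0.07, to -0.10 for marmoset kidney against heart, beside 0.10, and to -0.12 for rat liver against the mean, beside -0.01. Of 72 alternative counts of list genes called higher, 67 were within 1.5 times. For every list the count fell in some alternative in both species, also where no fall is given above. The brain columns were not added to the fit because each fits several samples. Settings other than a left-out library or the block also ended calls: SLC10A2 and SLC51B in marmoset liver against the mean (pseudocounts of 0.1 and 5), SLC51A in marmoset liver against kidney (both, no filter and quantile normalization) and marmoset kidney against heart (pseudocount of 5), and, in the rat, CYP7B1 and SLC51A in liver against the mean and SLC10A2 in kidney against heart (pseudocount of 5 and no filter, and quantile normalization for SLC10A2).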

Other observations

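Other genes of the lists, picked after their values were seen, are given as levels without a test. FABP6, the ileal bile acid binding protein, was at 214 FPKM in the rat ovary, the column with the highest rat SLC51A, and at most 0.336 FPKM in every other rat column. The marmoset ovary held 0.0298 FPKM of FABP6. ABCC3, a basolateral efflux pump, was at 94.8 and 110.4 FPKM in the male and female marmoset livers and at 0.377 and 1.45 FPKM in the male and female rat livers, in tables normalized separately. CYP46A1, the neuronal cholesterol hydroxylase, was at 47.1 and 29.4 FPKM in the male and female marmoset brain columns, against 3.60 and 2.49 FPKM in the livers, and at 43.5 and 31.8 FPKM in the male and female rat brain columns, against 0.116 and 0.352 FPKM in the livers. NR0B2 was at 40.7 and 29.0 FPKM in the male and female rat hearts, against 51.0 and 16.2 FPKM in the livers, whereas the marmoset hearts held 0.560 and 0 FPKM.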
